A study of Arabidopsis thaliana with 15 samples.

Results

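The LSM genes encode small Sm-like proteins that assemble into rings on RNA. The 10 Arabidopsis thaliana loci LSM1A, LSM1B, LSM2, LSM3A, LSM3B, LSM4, LSM5, LSM6A, LSM7 and LSM8 were taken by name from the 33602 loci of the deposited count tables; the rule names the loci and sets no threshold on a measured value. All 10 passed the filter on low counts in every comparison. RNA came from 2-week-old seedlings of the eds4 mutant (labelled eds4 -/-) and of the wild type (ecotype Col-0), grown together on agarose medium at 22 °C under constant white light at 50 µmol per m2 and s. A profiling experiment held whole seedlings of eds4 (n = 3) and of the wild type (n = 4). A distribution experiment, with another RNA extraction, held nuclei obtained by fluorescence-activated sorting from eds4 and from the wild type (n = 2 each) and total RNA of whole seedlings of eds4 and of the wild type (n = 2 each). The labels name the mutant eds4 without an allele number, and do not say whether replicates were separate cultures, so a p-value here reflects the spread of the libraries, which may be technical. The labels do not say which cell types supplied the nuclei.

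Library totals were 39474734 to 45343833 counts in eds4 seedlings, 37277300 to 51059295 in wild type seedlings, 12393243 to 21786898 in eds4 nuclei, 15291096 to 19594301 in wild type nuclei, 22805360 to 31586867 in eds4 total RNA and 31168662 to 31745372 in wild type total RNA. Levels are given as CPM (counts scaled to a library of 1e+06 after TMM normalisation, edgeR's trimmed mean method), a scale on which the typical gene does not change. EDS4, the mutated locus, which encodes the nuclear pore scaffold protein NUP205, stood at 31.9, 31.9 and 42.2 CPM in eds4 seedlings, against 73.3, 72.2, 84.3 and 63.8 CPM in wild type seedlings. In nuclei it stood at 59.6 and 62.5 CPM in eds4 and at 48.5 and 65.6 CPM in the wild type, so there it gives no check of the labels. Of 12 markers of dividing cells, 0 were called in eds4 seedlings and all 12 had positive values; their summed level was 197 to 235 CPM in eds4 seedlings and 170 to 229 CPM in wild type seedlings. Of 5 mesophyll markers 1 was called lower, with summed levels of 23235 to 31713 CPM in eds4 seedlings and 30790 to 36641 CPM in wild type seedlings.

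As background, LSM2 to LSM7 are shared by a cytoplasmic and a nuclear ring, and the last subunit tells the rings apart. With LSM1 the ring binds shortened messenger RNA tails together with PAT1 and promotes removal of the cap, which opens the transcript to decay from its start. With LSM8 the ring binds and stabilises U6, the small nuclear RNA at the catalytic centre of the spliceosome. In Arabidopsis LSM1, LSM3 and LSM6 are each encoded by a pair of genes, of which the LSM6A partner was not analysed here.

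LSM1A (AT1G19120, chromosome 1, 6608115 to 6609369, TAIR10) and LSM1B (AT3G14080, chromosome 3, 4667365 to 4669194) differ throughout their coding sequences. These, each 387 bases in 5 coding exons, are identical at 74.7% of aligned bases, and the longest run that they share is 14 bases. LSM3A (AT1G21190, chromosome 1, 7419678 to 7420903) and LSM3B (AT1G76860, chromosome 1, 28854414 to 28855750) are closer, with 86.2% identity and a shared run of 41 bases, so some of their reads could be exchanged. The first 90 coding bases of each pair are shown from the start codon because the results turn on how the reads of a pair divide. Capitals mark the bases that differ within the pair, 25 between the LSM1 genes and 13 between the LSM3 genes.
LSM1A: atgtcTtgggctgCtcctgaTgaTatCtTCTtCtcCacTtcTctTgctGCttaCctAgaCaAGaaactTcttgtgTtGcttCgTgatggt
LSM1B: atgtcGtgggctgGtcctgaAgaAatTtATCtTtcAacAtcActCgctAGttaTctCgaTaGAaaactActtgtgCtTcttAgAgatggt
LSM3A: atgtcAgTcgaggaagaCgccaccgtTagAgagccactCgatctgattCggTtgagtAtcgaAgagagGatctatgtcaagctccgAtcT
LSM3B: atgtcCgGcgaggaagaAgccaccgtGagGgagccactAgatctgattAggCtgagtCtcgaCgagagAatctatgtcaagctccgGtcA

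In eds4 seedlings 1 of the 10 LSM transcripts was called lower, LSM1B, and 0 were called higher; over all 22202 genes tested 1.34% were called, 0.581% as lower and 0.757% as higher. LSM1B, one of the genes for the subunit that marks the cytoplasmic ring, stood at 18.2, 17.1 and 13.7 CPM in eds4 seedlings, against 33.1, 90.4, 55.8 and 55.5 CPM in wild type seedlings. The eds4 libraries lay close together and below every wild type library, while the wild type libraries spread widely, with replicate 2 highest and replicate 1 lowest. LSM1B fell by 1.85 on the log2 scale (SE 0.30, edgeR quasi-likelihood test, adjusted p = 0.0298), which corresponds to means of 16.3 CPM in eds4 and 58.7 CPM in the wild type. The coefficient of variation of LSM1B over the wild type seedlings was 40.3%, against 2.99 to 10.5% for the other members. The direction held without any one library (log2 -2.04 to -1.56), but the call was kept in only 2 of 7 such fits. It was lost without wild type replicate 3 (edgeR adjusted p = 0.0674), wild type replicate 4 (0.0823), eds4 replicate 1 (0.129), eds4 replicate 2 (0.124) or eds4 replicate 3 (0.0530).

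LSM1A, the other gene for that subunit, was not called in eds4 seedlings. It stood at 24.3, 22.9 and 25.5 CPM in eds4 seedlings, against 21.5, 23.4, 21.0 and 26.4 CPM in wild type seedlings, and the groups overlapped. Its log2 difference was 0.07 (SE 0.09, edgeR adjusted p = 0.768), with an interval of 2 SE from -0.12 to 0.26.

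LSM8 (AT1G65700, chromosome 1, 24434203 to 24436294), the subunit that marks the nuclear ring, stood at 15.8, 14.6 and 12.7 CPM in eds4 seedlings and at 11.9, 10.6, 12.1 and 13.1 CPM in wild type seedlings. The lowest eds4 library lay below the highest wild type library. The log2 difference was 0.27 (SE 0.11, edgeR adjusted p = 0.271).

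The 7 genes of the shared subunits gave small positive log2 differences in eds4 seedlings, from 0.07 for LSM3A to 0.29 for LSM5 (AT5G48870), and none passed the adjusted test. LSM7 (AT2G03870) stood at 39.0, 33.8 and 32.6 CPM in eds4 seedlings, against 30.3, 29.0, 31.0 and 31.0 CPM in wild type seedlings (log2 0.21, SE 0.08, edgeR adjusted p = 0.246). LSM6A (AT3G59810) stood at 21.5, 23.0 and 19.5 CPM in eds4 seedlings, against 17.5, 17.1, 17.3 and 18.8 CPM in wild type seedlings (log2 0.27, SE 0.08, edgeR adjusted p = 0.158). For these genes every eds4 library was above every wild type library, as it was for LSM2 and LSM3B. Over the 10 members 4 lay wholly above the wild type, where 8.71% of all genes tested did, and 1 wholly below, where 6.93% did. Of the 10 members 9 had a positive difference, all but LSM1B, against 50.0% of all genes tested. The median was 0.17 over the 10 and 0.20 over these 9, a set that leaves out the member with a negative value. Among these 9, 5 had an unadjusted p under 0.05, as did 3559 of 22202 genes. The members were measured in the same libraries, so they are not separate replicates of the genotype. DESeq2 called 0 of these 9. Without one library or another, LSM3A ranged from -0.03 to 0.17, while the other 8 stayed positive. The markers of dividing cells had positive values beside them, and their part in these small differences was not tested.

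**Figure D1:**
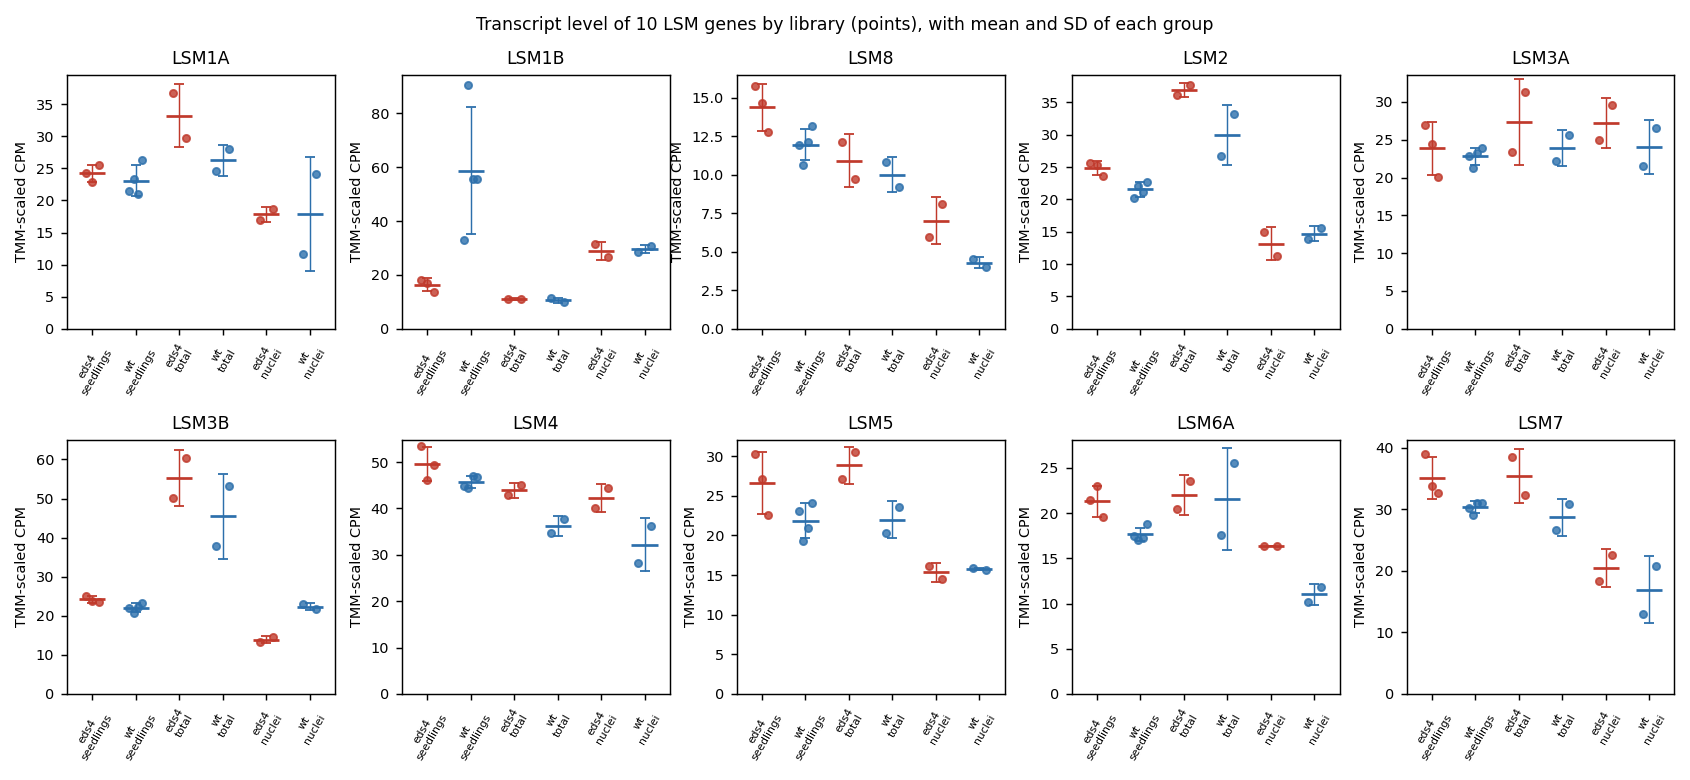
TMM-scaled CPM (vertical axes, each from 0) of the 10 LSM genes in eds4 and wild type seedlings of the profiling experiment and in total RNA and sorted nuclei of the distribution experiment; points are libraries, bars the group mean and SD. LSM1B stands out in wild type seedlings, where the libraries lie between 33.1 and 90.4 CPM, against 13.7 to 18.2 CPM in eds4 seedlings.

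LSM1B took a smaller part of the LSM1 reads in eds4 seedlings than in wild type seedlings. LSM1B held 42.9, 42.8 and 34.9% of the LSM1A and LSM1B counts in eds4 seedlings, against 60.6, 79.4, 72.6 and 67.8% in wild type seedlings. The groups did not overlap: the means were 40.2% ± 4.56 in eds4 (SD, n = 3) and 70.1% ± 7.92 in the wild type (SD, n = 4), a difference of -29.9 percentage points. The two-sided exact permutation p was 0.0571, which is the smallest that 3 against 4 libraries allow. This share does not depend on library scaling, but it rests on the same LSM1B counts as the test above. The share of LSM3B in the LSM3 pair averaged 50.5% ± 3.03 in eds4 (n = 3) and 49.3% ± 0.266 in the wild type (n = 4), a difference of 1.28 points (exact permutation p = 0.743) that turned to -0.436 without eds4 replicate 3.

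**Figure D2:**
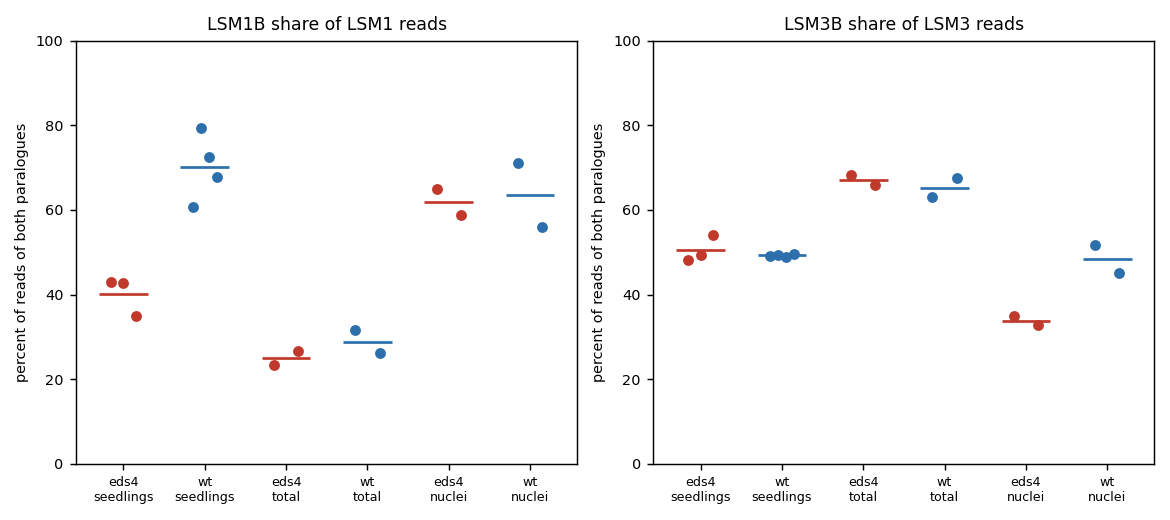
Percent of the reads of each pair that fell on LSM1B (left) and on LSM3B (right), by library (points) with the group mean (bars), for eds4 and wild type in seedlings, total RNA and nuclei. The LSM1B share averaged 40.2% in eds4 seedlings and 70.1% in wild type seedlings, and lay lower in total RNA of both genotypes.

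Per length, with RPKM (CPM per kilobase of the deposited effective length), LSM8 ranked lowest of the 10 in wild type seedlings and in the nuclei of both genotypes. In total RNA LSM1B ranked lowest, at 11.7 ± 0.236 RPKM in eds4 and 11.2 ± 1.07 RPKM in the wild type (SD, n = 2 each). There LSM8 was next, at 13.1 ± 2.04 RPKM in eds4 and 12.0 ± 1.34 RPKM in the wild type, within its spread of LSM1B. In eds4 seedlings LSM1B and LSM8 shared the lowest place, at 17.3 ± 2.52 and 17.3 ± 1.83 RPKM (SD, n = 3). In wild type seedlings LSM1B had the highest mean, 62.2 ± 25.1 RPKM (SD, n = 4), followed by LSM4 at 50.14 ± 1.501 RPKM, and these neighbours did not differ beyond the spread of LSM1B. LSM7 and LSM5 came next in wild type seedlings at 42.7 ± 1.33 and 42.0 ± 4.19 RPKM, within their spread of each other. In eds4 seedlings LSM4, LSM5 and LSM7 led at 54.4 ± 4.06, 51.2 ± 7.51 and 49.4 ± 4.77 RPKM, also within their spread.

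The summed RPKM of both LSM1 genes was 2.69 to 3.11 times that of LSM8 in eds4 seedlings, and 4.41 to 9.87 times in wild type seedlings. LSM1A alone gave ratios to LSM8 of 1.84 ± 0.279 in eds4 seedlings (SD, n = 3) and 2.102 ± 0.228 in wild type seedlings (SD, n = 4), and these groups overlapped. In total RNA the summed ratio was 4.20 ± 0.144 in eds4 and 3.81 ± 0.599 in the wild type (SD, n = 2 each). These are ratios of transcripts, and ring proteins were not measured.

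In total RNA of the distribution experiment LSM1B was low in both genotypes, at 11.2 and 10.9 CPM in eds4 and at 11.3 and 9.87 CPM in the wild type. The groups overlapped, and the log2 difference was 0.06 (SE 0.25, edgeR adjusted p = 1). Of the 10 members 0 were called in total RNA by edgeR and 0 by DESeq2, and 0 had an unadjusted p under 0.05; over all 21484 genes tested edgeR called 0.00465%. All 10 log2 differences were positive, from 0.03 for LSM6A to 0.39 for LSM5, against 48.2% of all genes tested, and 5 members lay wholly above the wild type, where 17.2% of all genes did. The 12 markers of dividing cells were again all positive and uncalled, with summed levels of 263 to 303 CPM in eds4 total RNA and 215 to 242 CPM in wild type total RNA; their part was not tested.

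The genotype effect on LSM1B differed between total RNA and the profiling seedlings by 1.93 on the log2 scale (SE 0.44, edgeR unadjusted p = 0.00113, adjusted p = 0.228). It therefore did not pass edgeR's adjusted test, in which 0 of the 10 members and 0.00888% of 22525 genes were called (0.00444% higher and 0.00444% lower), and DESeq2 gave an adjusted p of 0.00421. LSM1B was the 1 member with an unadjusted p under 0.05. Both experiments labelled the seedlings with the same age and light, and they differed in RNA extraction. The labels give no time of day of harvest, so experiment, extraction and harvest time cannot be told apart. LSM3B also stood at another level, with 50.2 and 60.4 CPM in eds4 total RNA and 37.8 and 53.2 CPM in wild type total RNA, against 20.7 to 25.2 CPM over all profiling seedlings; these levels come from separately scaled experiments.

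**Figure D3:**
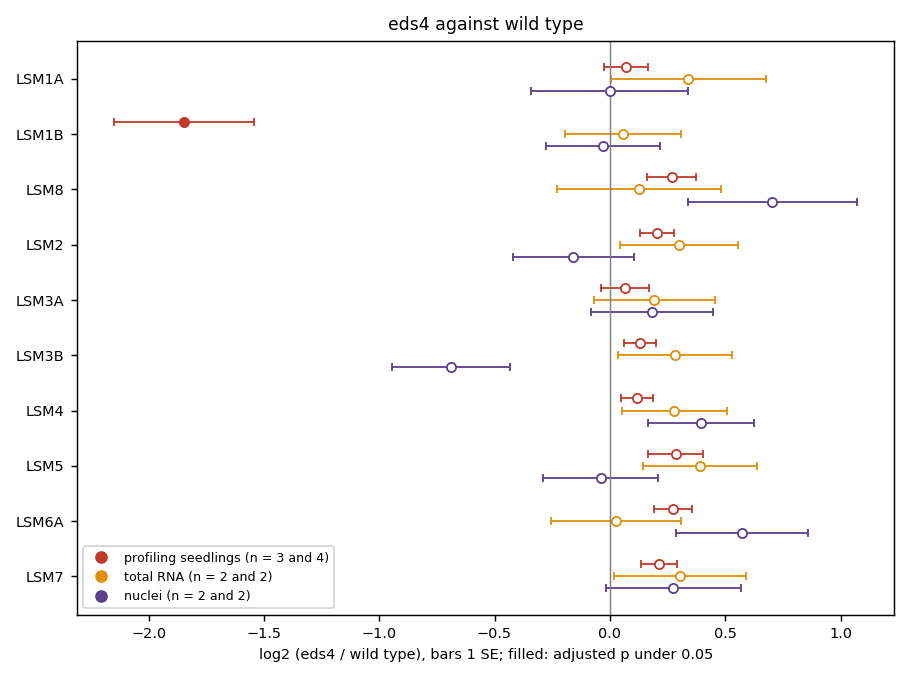
Log2 difference of eds4 against wild type (horizontal axis, bars 1 SE) for each LSM gene in profiling seedlings, total RNA and nuclei; filled points have an adjusted p under 0.05. The single filled point is LSM1B in profiling seedlings at -1.85.

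Around LSM1B on chromosome 3 no neighbouring locus was called in eds4 seedlings. Of the 5 loci on each side, edgeR called 0 of 10, where 1.34% of all genes tested were called, so 0 calls say little. Their log2 differences ran from -0.44 for AT3G14050 (RSH2, edgeR adjusted p = 0.0671) to -0.01 for AT3G14110 (FLU). All 10 were thus negative, where 50.0% of all genes tested were positive. AT3G14075, the lipase gene just upstream, averaged 19.9 CPM in eds4 seedlings and 21.4 CPM in wild type seedlings. EXO70D3 (AT3G14090), just downstream, averaged 13.3 CPM in eds4 seedlings and 15.5 CPM in wild type seedlings.

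**Figure D4:**
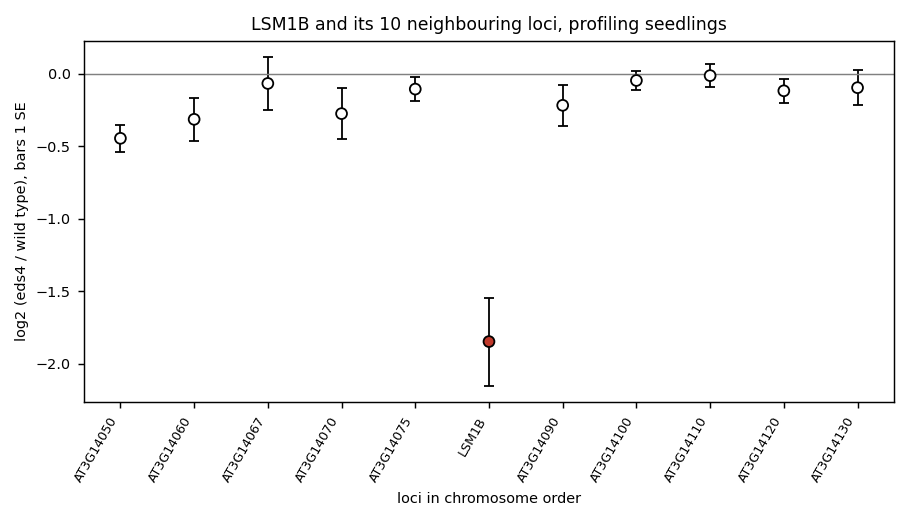
Log2 difference of eds4 against wild type in profiling seedlings (vertical axis, bars 1 SE) for LSM1B and the 5 loci on each side, in chromosome order. LSM1B, the filled point, lies at -1.85, and the neighbours lie between -0.44 and -0.01.

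The stretch between the neighbouring gene and the first annotated transcript is shown for LSM1B, the member called in seedlings, and for its paralogue LSM1A (RefSeq, TAIR10.1, plus strand, chr3:4667080-4667307 for LSM1B and chr1:6607944-6608114 for LSM1A). Capitals mark an evening element, a promoter motif known from evening-phased clock genes (AAAATATCT, here on the reverse strand, 168 to 160 bases before the start of the counted locus).
LSM1B: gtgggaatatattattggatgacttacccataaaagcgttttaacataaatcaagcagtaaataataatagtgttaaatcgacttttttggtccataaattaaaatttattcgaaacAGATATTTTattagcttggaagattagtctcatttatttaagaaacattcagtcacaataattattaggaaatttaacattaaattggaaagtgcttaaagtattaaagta
LSM1A: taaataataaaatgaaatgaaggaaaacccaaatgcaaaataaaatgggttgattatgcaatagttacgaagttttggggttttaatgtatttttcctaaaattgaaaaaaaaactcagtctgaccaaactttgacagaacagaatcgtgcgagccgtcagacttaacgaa
Over the 300 bases upstream of each of 32834 loci, searched on both strands, this motif occurred in 2.62%, and among the 10 members in LSM1B alone. The CCA1-binding site AAAAATCT, which shares most of its letters with the evening element, occurred in 7.46% of loci and in LSM8. The telo box AAACCCTA occurred in 7.03% and in LSM6A, the site II element TGGGCC in 14.1% and in LSM3A and LSM3B, and the G-box CACGTG in 7.47% and in no member. The LSM6A match lay 245 to 238 bases before the start. The neighbouring locus AT3G59800 overlaps that window, and no bases lie between the 2 genes. These are matches of letters only, and factor binding was not measured.

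In sorted nuclei, relative to total RNA, LSM1B was higher in both genotypes and was the 1 member called higher in each. It stood at 31.3 and 26.6 CPM in eds4 nuclei, against 11.2 and 10.9 CPM in eds4 total RNA (log2 1.40, SE 0.25, edgeR adjusted p = 0.00289). It stood at 28.5 and 30.7 CPM in wild type nuclei, against 11.3 and 9.87 CPM in wild type total RNA (log2 1.48, SE 0.25, edgeR adjusted p = 0.00221). Every nuclear library lay above every total library, and the call was kept in all 8 fits that left out a library in each genotype. Among all 21484 genes tested, 29.6% were called in eds4 nuclei, 15.6% of all as higher, and 30.6% in wild type nuclei, 15.1% of all as higher. Groups lay wholly above in 33.5% of genes in eds4 and 33.1% in the wild type.

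LSM1A had log2 differences in nuclei against total RNA of -0.90 in eds4 (SE 0.34, edgeR adjusted p = 0.0727) and -0.56 in the wild type (SE 0.34, adjusted p = 0.240). Its wild type nuclei were far apart, at 11.6 and 24.2 CPM. LSM1B accordingly held 64.9 and 58.7% of the LSM1 pair in eds4 nuclei, against 23.3 and 26.7% in eds4 total RNA, and 71.0 and 56.0% in wild type nuclei, against 31.5 and 26.1% in wild type total RNA.

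Among the remaining members, LSM2 and LSM3B were called lower in nuclei of both genotypes. LSM5 was called lower in eds4 only, and LSM6A and LSM8 in the wild type only. The log2 difference of LSM5 was -0.91 in eds4 (edgeR adjusted p = 0.0211) and -0.48 in the wild type (0.172). That of LSM6A was -0.42 in eds4 (edgeR adjusted p = 0.294) and -0.97 in the wild type (0.0283). LSM7, called in neither, had -0.79 in eds4 (edgeR adjusted p = 0.0648) and -0.77 in the wild type (0.0711). In all, 3 members were called lower in eds4 nuclei, where 14.0% of all genes tested were, and 4 in wild type nuclei, where 15.6% were. LSM2 (AT1G03330) stood at 14.98 and 11.3 CPM in eds4 nuclei, against 36.1 and 37.6 CPM in eds4 total RNA (log2 -1.48, SE 0.26, edgeR adjusted p = 0.00262). In the wild type LSM2 stood at 13.9 and 15.6 CPM in nuclei, against 26.7 and 33.2 CPM in total RNA (log2 -1.03, SE 0.26, edgeR adjusted p = 0.0153). The nuclear libraries lay below the total libraries of the same genotype for 7 of 10 members in eds4 and for 7 of 10 in the wild type, where 32.1 and 35.4% of all genes did so.

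LSM3B stood at 13.3 and 14.5 CPM in eds4 nuclei, against 50.2 and 60.4 CPM in eds4 total RNA (log2 -1.99, SE 0.26, edgeR adjusted p = 0.000622). In the wild type it stood at 23.0 and 21.8 CPM in nuclei, against 37.8 and 53.2 CPM in total RNA (log2 -1.02, SE 0.25, edgeR adjusted p = 0.0131). Its paralogue LSM3A showed values near 0 on the same scale, -0.01 in eds4 (SE 0.26, adjusted p = 0.993) and 0.01 in the wild type (SE 0.26, adjusted p = 0.991). LSM3B therefore held 34.9 and 32.8% of the LSM3 pair in eds4 nuclei, against 68.3 and 65.9% in eds4 total RNA, and 51.7 and 45.1% in wild type nuclei, against 63.0 and 67.5% in wild type total RNA.

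LSM8, whose protein works in the nucleus, stood at 5.95 and 8.10 CPM in eds4 nuclei, against 12.1 and 9.72 CPM in eds4 total RNA (log2 -0.64, SE 0.36, edgeR adjusted p = 0.212). In the wild type it stood at 4.54 and 4.04 CPM in nuclei, against 10.8 and 9.22 CPM in total RNA (log2 -1.22, SE 0.37, edgeR adjusted p = 0.0307). LSM8 had the lowest counts of the members, down to 61 in a nuclear library. LSM4 (AT5G27720) and LSM3A were called in neither genotype, with LSM4 at -0.05 in eds4 (SE 0.23) and -0.17 in the wild type (SE 0.23).

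Several calls in nuclei depended on single libraries. In the wild type the calls of LSM2, LSM3B and LSM6A were lost without total RNA replicate 2 (edgeR adjusted p = 0.125, 0.138 and 0.252), and LSM8 was lost in 6 of 8 such fits. LSM2 and LSM6A were also lost without nuclei replicate 1 (0.0622 and 0.0974), and LSM3B without nuclei replicate 2 (0.0525). In eds4, LSM2 and LSM3B kept their calls in all 8, and LSM5 was lost without either total RNA replicate or without nuclei replicate 2 (edgeR adjusted p = 0.0731, 0.133 and 0.0756). All 5 mesophyll markers fell in nuclei of both genotypes, with summed levels of 6896 to 8462 CPM in eds4 nuclei and 58523 to 61470 CPM in eds4 total RNA, and of 9099 to 12965 CPM in wild type nuclei and 57633 to 66578 CPM in wild type total RNA. Of the 12 markers of dividing cells 1 rose and 3 fell in each genotype. Nuclei and total RNA differ in the fraction of RNA sampled as well as in sorting. The fraction, a different mix of cells, fewer cells of a type and less RNA per cell cannot be told apart here. The part of these markers in the LSM values was not tested.

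**Figure D5:**
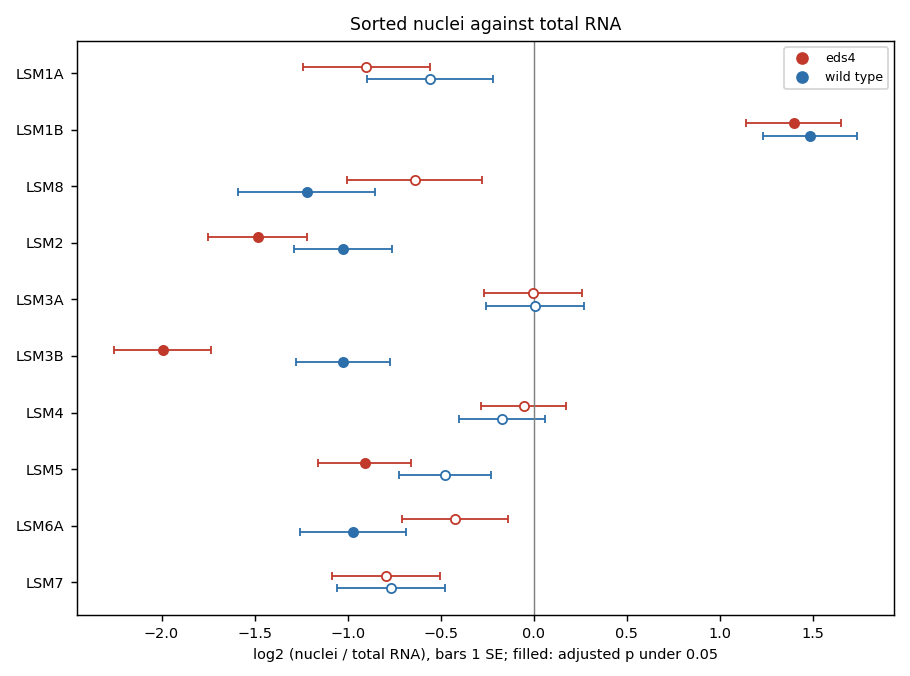
Log2 difference of sorted nuclei against total RNA (horizontal axis, bars 1 SE) for each LSM gene in eds4 and in the wild type; filled points have an adjusted p under 0.05. LSM1B lies to the right in both genotypes, at 1.40 in eds4 and 1.48 in the wild type, and LSM3B furthest to the left in eds4, at -1.99.

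The nuclear-to-total ratio of 0 of 10 members differed between the genotypes in the interaction test of edgeR, in which 0% of all 21484 genes were called. DESeq2 called 40 genes and edgeR without the low-count filter 226, with 0 members in either. LSM3B had the smallest p of the members and was the 1 with an unadjusted p under 0.05, at a difference of -0.97 on the log2 scale (SE 0.36, edgeR unadjusted p = 0.0212, adjusted p = 0.824). For LSM1B the difference was -0.09 (SE 0.35, edgeR adjusted p = 0.998).

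Between the nuclei of the genotypes edgeR called 0 of 10 members and DESeq2 called 0, against 0.363% of all genes in edgeR, 0.312% as higher and 0.0512% as lower. LSM3B was the 1 member with an unadjusted p under 0.05, at 13.3 and 14.5 CPM in eds4 nuclei and 23.0 and 21.8 CPM in wild type nuclei (log2 -0.69, SE 0.25, edgeR adjusted p = 0.265). LSM8 at 0.70 (SE 0.37, edgeR adjusted p = 0.424), LSM6A at 0.57 (SE 0.29, adjusted p = 0.403) and LSM4 at 0.39 (SE 0.23, adjusted p = 0.477) lay wholly above the wild type, where 19.6% of all genes did, and LSM3B wholly below, where 18.8% did. Both guard cell markers had positive values and were uncalled, with summed levels of 20.6 to 28.3 CPM in eds4 nuclei and 8.22 to 9.13 CPM in wild type nuclei. The endodermis markers summed to 42.9 to 49.6 CPM in eds4 nuclei and 49.2 to 52.7 CPM in wild type nuclei, and the 2 went opposite ways. CASP1 stood at 5.34 and 12.4 CPM in eds4 and at 25.5 and 30.6 CPM in the wild type. SCR stood at 37.2 and 37.5 CPM in eds4 nuclei and at 22.1 and 23.7 CPM in wild type nuclei. The phloem marker SUC2 stood at 34.7 and 38.7 CPM in eds4 nuclei and at 35.1 and 26.1 CPM in wild type nuclei. The 3 root hair markers summed to 0.769 to 3.80 CPM in eds4 nuclei and 3.44 to 8.80 CPM in wild type nuclei, with EXP7 at 0 in wild type replicate 1 and COBL9 at 0 in eds4 replicate 2. Of 12 markers of dividing cells 9 had positive values, with sums of 337 to 463 CPM in eds4 nuclei and 305 to 392.3 CPM in wild type nuclei. The 5 mesophyll markers summed to 6896 to 8462 CPM in eds4 nuclei and 9099 to 12965 CPM in wild type nuclei, and 2 of the 5 had positive values. None of these markers was called, and their part in the LSM values was not tested. LSM1B did not separate the genotypes in nuclei, at a log2 difference of -0.03 (SE 0.25, edgeR adjusted p = 0.973).

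The proteins that work with the rings were described through lists of 16 genes of decapping and decay from either end, 9 proteins of the U4/U6.U5 tri-snRNP, the particle that carries U6 into the spliceosome, and 13 Sm core proteins. In eds4 seedlings edgeR called 0 of 16, 0 of 9 and 0 of 13 of them, where 1.34% of all 22202 genes tested were called. Of them 2, 1 and 3 had an unadjusted p under 0.05 in edgeR, as did 3559 of the 22202 genes. Their median log2 differences were -0.04 for decay, -0.05 for the tri-snRNP and 0.16 for the Sm core. In the Sm core 12 of 13 were positive, against 50.0% of all genes tested. The Sm core thus had a sign and size like those of the LSM members other than LSM1B, none of them past the test. The markers of dividing cells had a like sign and size, with 12 of 12 positive and a median of 0.16, and their part was not tested.

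In nuclei against total RNA 9 of 13 Sm core genes fell in eds4, where 14.0% of all genes tested were called lower, and 6 of 13 fell in the wild type, where 15.6% were; 0 rose in either. Their lowest log2 differences were -2.51 (AT3G11500, SE 0.27, edgeR adjusted p = 0.000398) and -2.43 (AT2G23930, SE 0.26, adjusted p = 0.000394) in eds4. AT4G02840 fell there too (-1.51, SE 0.27, edgeR adjusted p = 0.00267), and in the wild type AT2G23930 (-1.76, SE 0.26, adjusted p = 0.00101), AT4G20440 (-1.56, SE 0.24, adjusted p = 0.00143) and AT3G11500 (-1.58, SE 0.26, adjusted p = 0.00194) had the smallest p of the list. Of the 9 tri-snRNP genes 4 fell and 1 rose in eds4, and 6 fell and 1 rose in the wild type. The gene that rose in both was STA1, a PRP6-type protein of the tri-snRNP, at 1.11 in eds4 (SE 0.24, edgeR adjusted p = 0.00705) and 0.75 in the wild type (SE 0.24, adjusted p = 0.0382). YLS8, a DIM1-type protein, fell in both, with log2 differences of -1.98 in eds4 (SE 0.28, edgeR adjusted p = 0.000833) and -1.302 in the wild type (SE 0.27, adjusted p = 0.00577). GFA1, the GTPase of the U5 particle, fell too, with -1.13 in eds4 (SE 0.25, edgeR adjusted p = 0.00705) and -1.62 in the wild type (SE 0.25, adjusted p = 0.00133). PRP8A, the central scaffold of the spliceosome, fell as well, with -0.998 in eds4 (SE 0.24, edgeR adjusted p = 0.0123) and -1.47 in the wild type (SE 0.25, adjusted p = 0.00198). Of the 16 decay genes 1 rose and 0 fell in eds4, where 15.6% of all genes tested were called higher and 14.0% lower, and 2 rose and 1 fell in the wild type, where 15.1% were called higher and 15.6% lower; these shares are near or below those of all genes. RH6, a DEAD-box helicase related to the decapping activator DHH1 of yeast, was higher in nuclei of both genotypes (log2 0.83 in eds4, SE 0.24, edgeR adjusted p = 0.0254, and 0.93 in the wild type, SE 0.24, adjusted p = 0.0152). DCP1, a cofactor of the decapping enzyme, rose in the wild type (log2 0.91, SE 0.25, edgeR adjusted p = 0.0205), and XRN2, a nuclear exonuclease, fell there by 0.80 (SE 0.23, adjusted p = 0.0237).

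Over the 15 libraries LSM1B was the member with a negative correlation to every other. Its Pearson correlation of log2 levels with each of the other 9 members was negative, from -0.67 with LSM3B to -0.24 with LSM4, whereas LSM2 and LSM3B (0.90), LSM2 and LSM5 (0.90) and LSM7 and LSM8 (0.84) ran together. LSM3A was less tied to the others, at -0.28 with LSM8, 0.05 with LSM7 and 0.18 with LSM4, and LSM3B had 0.11 with LSM4. These values describe libraries that share fraction, genotype and experiment. By the same measure the most similar of 18621 genes to LSM1B were AT3G54500, known as LNK2, a coactivator of the clock (0.81), and COL2, a CONSTANS-like B-box protein (AT3G02380, 0.80). They were followed by ESE3, an AP2/ERF transcription factor (AT5G25190, 0.79), AT5G22860, a serine carboxypeptidase (0.78), and FMO GS-OX2, an enzyme of glucosinolate side-chain oxidation (AT1G62540, 0.78).

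LNK2 stood at 113 to 157 CPM in eds4 seedlings and at 291 to 396 CPM in wild type seedlings. In eds4 it stood at 446 to 634 CPM in nuclei and at 38.9 to 58.4 CPM in total RNA, and in the wild type at 203 to 273 CPM in nuclei and at 45.6 to 55.0 CPM in total RNA. Like LSM1B, LNK2 was high in wild type seedlings and in nuclei and low in total RNA, but unlike LSM1B its highest libraries were eds4 nuclei. LNK2 and COL2 were picked for their correlation with LSM1B over these libraries, so a likeness between groups follows from that choice. COL2 was also lower in eds4 seedlings, with 41.6 to 56.3 CPM in eds4 and 87.9 to 109 CPM in the wild type, and 8.94 to 9.05 CPM in eds4 total RNA and 9.36 to 10.2 CPM in wild type total RNA. Its nuclei stood at 35.6 to 44.2 CPM in eds4 and 27.5 to 31.6 CPM in the wild type, so its eds4 nuclei averaged below its eds4 seedlings. For LSM1B every eds4 nuclear library was above every eds4 seedling library, but the wild type went the other way. There the LSM1B nuclei, at 28.5 and 30.7 CPM, lay below every seedling library, of which the lowest stood at 33.1 CPM. The rise of LSM1B in wild type nuclei thus held against total RNA only, and seedlings and nuclei come from separately scaled experiments. LSM8 had closer companions, led by the ribosomal protein S30 gene AT2G19750 (0.97), UGT71B1 (AT3G21750, 0.97), a glucosyltransferase, and AT4G02450, an HSP20-like chaperone gene (0.97). AHP2, a phosphotransmitter of cytokinin signalling (AT3G29350, 0.97), and GGPS1, which makes geranylgeranyl diphosphate (AT4G36810, 0.97), followed.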

How the data were processed

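Polyadenylated or nuclear RNA was sequenced in 15 libraries. The authors deposited raw read counts per locus, per the file headers, with the coordinates of each locus; alignment with TopHat2 2.1.1, SAMtools 1.3 and the TAIR10 build is named in the submitters' processing notes. The counting program, its strand setting and its handling of reads with several matches were not given in the sources used here. Libraries were matched to groups by column name, and 0 columns belonged to other samples. Counts were tested with edgeR 4.0.16 in R 4.3.3 (filterByExpr by group, TMM scaling, quasi-likelihood F test, Benjamini-Hochberg adjustment over all genes tested, threshold 0.05). The 7 profiling libraries and the 8 distribution libraries were fitted separately, and the 11 whole-seedling libraries together for the difference between experiments. Where 2 libraries made a group, the 8 libraries shared one estimate of spread. SE was derived from the fold change and F. Pair shares were compared with an exact permutation test. Patterns were compared on log2(CPM + 0.5) among genes with a mean of at least 1. The test code was tested on simulated data.

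Members, gene lists, motifs and tests were chosen with earlier results of these data known. The text names all 10 members, EDS4, from each list the called genes among the 3 smallest p in each comparison, and the 5 genes most like LSM1B and LSM8. Sequences were read from RefSeq's TAIR10.1, in which 10 of 10 members matched by locus tag; of 32835 matched loci 56.8% share a start or end with the deposited coordinates, and the exonic lengths of LSM1A, LSM3B and LSM5 equal the deposited effective lengths. Same-numbered libraries of the profiling experiment had correlations of deviations of 0.54, 0.01 and 0.57, so the numbers were not taken as pairs. Alternatives were scaling by relative log expression, no low-count filter, DESeq2 1.42.0, a replicate block, a term for replicate sets, a joint fit and leaving out each library.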

Additional observations from a re-analysis of the deposited data

How the results depend on the processing

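In eds4 seedlings LSM1B was called lower under relative log expression scaling, without the low-count filter, with DESeq2, with a term for replicates 1 and 2 against 3 and 4, and in the joint fit of 11 libraries (log2 -1.89 to -1.85). The number of members called there was 0 to 1 when one library was left out, and LSM1B ranged from -2.04 to -1.56. In nuclei against total RNA, 1 to 5 members were called in the wild type and 3 to 6 in eds4 when one library was left out. Of 22462 to 22991 genes tested, those fits called 3418 to 7546 in the wild type and 3729 to 6915 in eds4. With DESeq2 and without the filter 6 members were called in eds4. Of 28308 genes in those fits, DESeq2 called 7266 in eds4 and edgeR without the filter 7397. For the difference between experiments DESeq2 called 1 member where edgeR called 0, with 1.94 for LSM1B; leaving out a library gave 1.64 to 2.12. The LSM1B share difference ranged from -33.1 to -26.8 points and that of LSM3B from -0.436 to 2.43 when one library was left out, and the cause of its reversal without eds4 replicate 3 was not tested. Of all alternative values of single members and EDS4, 923 kept their direction and side of the threshold or were never called, 15 passed it and 30 no longer did.

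The number of genes called in eds4 seedlings was 297 in edgeR, 1011 in DESeq2, 414 with the replicate block, 868 with the term for replicate sets, 88 in the joint fit and 42 to 462 without one library. For eds4 against wild type nuclei it was 78 in edgeR, 837 in DESeq2, 1167 without the filter, 248 with the replicate block, 32 under relative log expression scaling and 1 to 181 without one library, with 1 call without either wild type nuclei replicate. In total RNA edgeR called 1 gene, DESeq2 16, edgeR without the filter 95 and with the block 3. The interaction gave 0 calls in edgeR, 40 in DESeq2 and 226 without the filter. The difference between experiments gave 2 in edgeR, 210 in DESeq2, 15 without the filter, 5 with the block and 2 to 28 without one library. Nuclei against total RNA gave 6357 calls in eds4 (3729 to 6915 without one library) and 6582 in the wild type (3418 to 7546).

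With the replicate block LSM1B kept its call in eds4 seedlings (log2 -1.77, edgeR adjusted p = 0.0487), and 6 members were called in wild type nuclei and 5 in eds4 nuclei, LSM7 being added in both. Calls also rose over all 21484 genes tested, from 6582 to 7323 in wild type nuclei and from 6357 to 7034 in eds4 nuclei. Numbers paired the profiling samples only in part. The correlation of deviations was 0.54 for replicate 1 and 0.57 for replicate 3, but 0.01 for replicate 2. Here eds4 replicate 2 went best with wild type replicate 1 (0.56). Across numbers it was -0.51 for eds4 replicate 1 with wild type replicate 3, and -0.69 for eds4 replicate 3 with wild type replicate 1. The genotypes thus share some structure between replicates that the main test does not model. In the distribution experiment the correlations were 0.00 to 0.24.

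Depth limits LSM8 most, with 61 counts in its lowest library, and groups of 2 libraries leave wide errors in the distribution experiment.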
